A study of Mus musculus with 2 samples.

Results

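The clustered histone genes of the mouse were examined in chromatin accessibility data (ATAC-seq, in which a transposase cuts open DNA) from activated CD8+ T cells. The set holds every autosomal protein-coding gene whose symbol in the GENCODE M21 annotation begins with Hist1h, Hist2h, Hist3h or Hist4h, which gave 67 of 20780 genes. Of these, 54 lay on chromosome 13, 10 on chromosome 3, 2 on chromosome 11 and 1 on chromosome 6. Peak intervals were assigned to the set when they lay within 1 kb of a start site of one of these genes, or when the nearest protein-coding start site within 100 kb belonged to one of them. The set was proposed and selected on the promoter coverage of these same libraries, so all its coverage values are a description and carry no test.

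The cells were wild-type OT-I cells, which are CD8+ T cells with a transgenic receptor for the peptide OVA257-264, given that peptide for 48 h. The vehicle culture had T cells and vehicle alone. In the TAMo culture the T cells were kept with TAMos, CD11b+Ly6G-Ly6Chigh myeloid cells taken from the spleens of mice that carried LLC tumours. T cells were sorted from each culture, about 50000 for a library, and each culture gave 1 library, so no difference below has a replicate check.

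The replication-dependent histone genes supply the proteins that package newly copied DNA and are transcribed mainly in S phase. They lie in clusters, mostly lack introns, and many H2A and H2B genes are arranged head to head around a shared promoter. Their mRNAs end in a short stem-loop in place of a poly(A) tail, and that stem-loop is bound by the protein Slbp. H2A, H2B, H3 and H4 form the nucleosome core and H1 is the linker histone. Hist1h1t, Hist1h2aa and Hist1h2ba are variants made in the testis, and the other 64 members were counted as replication-dependent.

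The promoters of 62 members were found in the RefSeq table for GRCm38.p6, the same assembly as mm10, as 250 bases before and 50 bases after the start site. Hist1h2bc, Hist1h3a, Hist1h3f, Hist2h2be and Hist2h4 had no entry. Of the 62 promoters, 53 (85.5%) held CCAAT on either strand, against 37.3% of 31396 autosomal promoters of the same length. TATAAA stood in 35 of them (56.5%), against 13.6% of all promoters. The motifs differed by histone type. CCAAT was present in every H1, H2A, H2B and H3 promoter of the table and in 3 of 12 H4 promoters. The octamer ATTTGCAT occurred in 7 of 18 H2A and 6 of 16 H2B promoters and in none of the H1, H3 and H4 promoters, against 1.75% of all promoters. AAACACA, known as the H1 box, was found in 5 of 6 H1 promoters, against 7.28% of all promoters. It also stood in 2 of 18 H2A and 2 of 16 H2B promoters. A match describes these letters only. Head-to-head genes can have overlapping promoters, as Hist1h2ah and Hist1h2bk do, so the same match can count for both types.

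The sequences printed here, 5′ to 3′ on the strand of the gene and credited to RefSeq (GRCm38.p6), stand for the kinds of promoter in the set, with matches to these motifs on either strand in capitals. Hist1h2bk, an H2B gene head to head with Hist1h2ah, lies at chr13:22035571-22035870 on the plus strand and is shown because it had the lowest 10 kb ratio of the members, shared with Hist1h2ah. Hist1h4i, an H4 gene at chr13:22041313-22041612 on the minus strand, had the highest 10 kb coverage of the members in vehicle and holds no CCAAT. Hist1h1b, an H1 gene at chr13:21780576-21780875 on the minus strand, carries the H1 box. Hist1h2ba, the testis H2B variant at chr13:23934107-23934406 on the minus strand, holds a TATA match, CCAAT matches, the octamer and an H1 box match. It had no promoter peak in either library.
Hist1h2bk: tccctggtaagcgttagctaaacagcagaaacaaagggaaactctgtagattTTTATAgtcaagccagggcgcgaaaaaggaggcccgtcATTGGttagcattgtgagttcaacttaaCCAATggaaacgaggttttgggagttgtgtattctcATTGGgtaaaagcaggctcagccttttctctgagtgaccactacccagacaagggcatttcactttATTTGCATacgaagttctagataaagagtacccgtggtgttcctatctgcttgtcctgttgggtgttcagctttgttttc
Hist1h4i: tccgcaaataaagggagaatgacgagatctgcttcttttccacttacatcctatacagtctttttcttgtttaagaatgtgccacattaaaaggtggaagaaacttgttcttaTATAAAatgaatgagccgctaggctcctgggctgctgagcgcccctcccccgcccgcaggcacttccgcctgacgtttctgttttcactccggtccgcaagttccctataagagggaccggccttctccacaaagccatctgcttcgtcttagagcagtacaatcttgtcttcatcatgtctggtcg
Hist1h1b: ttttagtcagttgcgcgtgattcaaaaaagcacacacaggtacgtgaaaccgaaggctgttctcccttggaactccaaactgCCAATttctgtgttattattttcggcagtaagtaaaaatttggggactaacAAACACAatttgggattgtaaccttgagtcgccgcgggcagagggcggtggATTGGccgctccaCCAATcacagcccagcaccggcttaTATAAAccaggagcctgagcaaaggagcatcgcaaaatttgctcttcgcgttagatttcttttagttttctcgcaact
Hist1h2ba: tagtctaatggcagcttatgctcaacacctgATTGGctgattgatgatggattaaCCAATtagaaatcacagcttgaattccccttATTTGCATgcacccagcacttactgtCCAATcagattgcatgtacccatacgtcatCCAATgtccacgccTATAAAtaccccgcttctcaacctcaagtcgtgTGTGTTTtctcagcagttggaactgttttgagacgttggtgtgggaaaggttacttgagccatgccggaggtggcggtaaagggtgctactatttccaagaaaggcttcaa

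The stem-loop pattern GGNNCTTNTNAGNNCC was found in the annotated transcripts of 46 of the 67 members, against 0.443% of 43103 basic transcripts of autosomal protein-coding genes. The whole transcript was searched, so a match need not lie at the annotated end. The bases between match and annotated end ran from 3, as in Hist1h2ap, to 4884 in Hist1h1d. Of the 21 members without a match, 15 had annotated transcripts of 550 bases or less, and for these the annotation may stop before the end of the mRNA. The forms are shown in DNA letters, with the positions that vary among members in capitals, because they set H4 apart from the other types. They did not separate H1, H2A, H2B and H3 from each other. The first form was shared by 26 members of H1, H2A, H2B and H3, the second by 7 members that were all H4, and another by 6 members of H1, H2B and H3. The H1 gene of those 6 was Hist1h1t, so a match was also found in a gene counted here as a testis variant. The 6 lines below cover 44 of the 46 matches.
First form: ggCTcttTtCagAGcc
Second form: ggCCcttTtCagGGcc
Another form: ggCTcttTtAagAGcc
Hist1h4i and Hist2h4: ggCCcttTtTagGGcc
Hist1h4b and Hist1h4j: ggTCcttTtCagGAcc
Hist1h4a: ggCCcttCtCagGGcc

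Coverage was recovered from each deposited row. Summit coverage is the number of reads stacked at the highest point of a peak. A second value, the local background of the peak caller, was read as the mean coverage over 10 kb around the summit with reads extended to 150 bp, because its values fall on steps of 0.015 reads, as 150 bp in 10 kb would give. The 10 kb value was added as a measure after the files were seen, and it includes the reads of the peak itself. Each was divided by the most frequent background of its library, 4.71 reads in vehicle and 5.80 reads in TAMo, which measures depth, and ratios are log2(TAMo/vehicle) of these scaled values. The lists held 127423 intervals for vehicle and 179414 for TAMo.

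The promoters of all 9 T cell markers taken for the label (Cd3e, Cd3d, Cd3g, Cd8a, Cd8b1, Cd2, Lck, Zap70 and Thy1) had peaks in both libraries, with a summed scaled summit coverage of 931 in vehicle and 902 in TAMo. Of 10 myeloid markers, 4 had promoter peaks in both libraries (Spi1, Cd14, Cd68 and Cebpa). Another 4 had one in TAMo only (Csf1r, Itgam, Fcgr3 and Adgre1, with 31 to 118 reads at the summit), and Ly6c2 and Lyz2 had none. The summed scaled summit coverage of the myeloid markers was 194 in vehicle and 301 in TAMo. For the 4 B cell markers it was 5.52 and 16.4, for the 4 erythroid markers 138 and 160.5, and the 5 neutrophil markers had no promoter peak. The part of these cells in the histone gene values was not tested.

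Most histone genes were open in both cultures. A promoter peak within 1 kb of a start site was found in both libraries for 58 of 67 members, against 65.3% of all genes. The peak was in vehicle only for 1 member (0.866% of all genes), in TAMo only for 0 members (3.4%) and in neither library for 8 members (30.5%). The member with a vehicle peak only was Hist1h3d, an H3 gene, with an interval at chr13:23575619-23575829, 482 reads at its summit and a 10 kb coverage of 165 reads. The 8 without a peak fell into distinct kinds. Hist1h1t, Hist1h2aa and Hist1h2ba are the testis variants. Hist1h2ao, Hist1h2ap, Hist1h2bq and Hist1h2br lie together on chromosome 13, and between 73.3% and 100% of the 50-base words of their promoters occur in another member's promoter. Hist1h4m, Hist1h4n, Hist2h3c1 and Hist2h3c2 also have such copies and had peaks in both libraries, and how reads with several matches were placed is not given in the sources used here. Hist1h1d, an H1 gene, has its GENCODE start upstream of the RefSeq one. At the RefSeq start it had a peak in both libraries, with 672 reads in vehicle and 732 in TAMo at the summit, and its 10 kb coverage was 128 reads in vehicle and 87.7 in TAMo. On the log2 scale these ratios were -0.18 at the summit and -0.85 over 10 kb. The strongest summits of the libraries lay at different places there, so these ratios do not compare the same site. Near the TAMo summit the scaled summit coverage was 138 in vehicle and 126 in TAMo. Near the vehicle summit it was 143 in vehicle and 103 in TAMo.

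Many members shared their peak. The 57 members whose strongest peaks overlapped between the libraries, and thus had a ratio, stood on 40 distinct regions. Of the 57, 32 shared 15 vehicle peaks, and 9 of those peaks joined H2A and H2B genes on opposite strands, as for Hist1h2ah and Hist1h2bk. In vehicle the summit lay upstream of the start site for 41 of the 57 members, and within 250 bp upstream for 32. All 15 H2B genes had it upstream, with a median of 119 bp, whereas 3 of 4 H1 genes had it downstream. For 5 members the summit lay more than 1 kb from the start site while the interval still reached the window. The remaining member, Hist2h2aa2, had peaks in both libraries that did not overlap and so has no ratio.

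Over 10 kb, every histone gene with a ratio had less coverage in TAMo than in vehicle. The median 10 kb coverage of the 57 members was 130 reads in vehicle, ranging from 13.5 to 202, and 71.0 reads in TAMo, ranging from 6.87 to 130, although TAMo was the deeper library. The median log2 ratio was -1.11, which is 2.16-fold lower in TAMo, and all 57 values were below 0, between -2.02 and -0.11. Over all 12926 promoters with a ratio the median log2 ratio was -0.02, with quartiles at -0.18 and 0.14. At least 1.5-fold lower in TAMo were 47 of the 57 members, against 2.87% of all promoters, and 0 were 1.5-fold higher, against 3.89%. At least 2-fold lower were 38 members, against 0.441% of all promoters. In bulk libraries, fewer cells with open loci and less opening in each cell cannot be told apart.

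**Figure D1:**
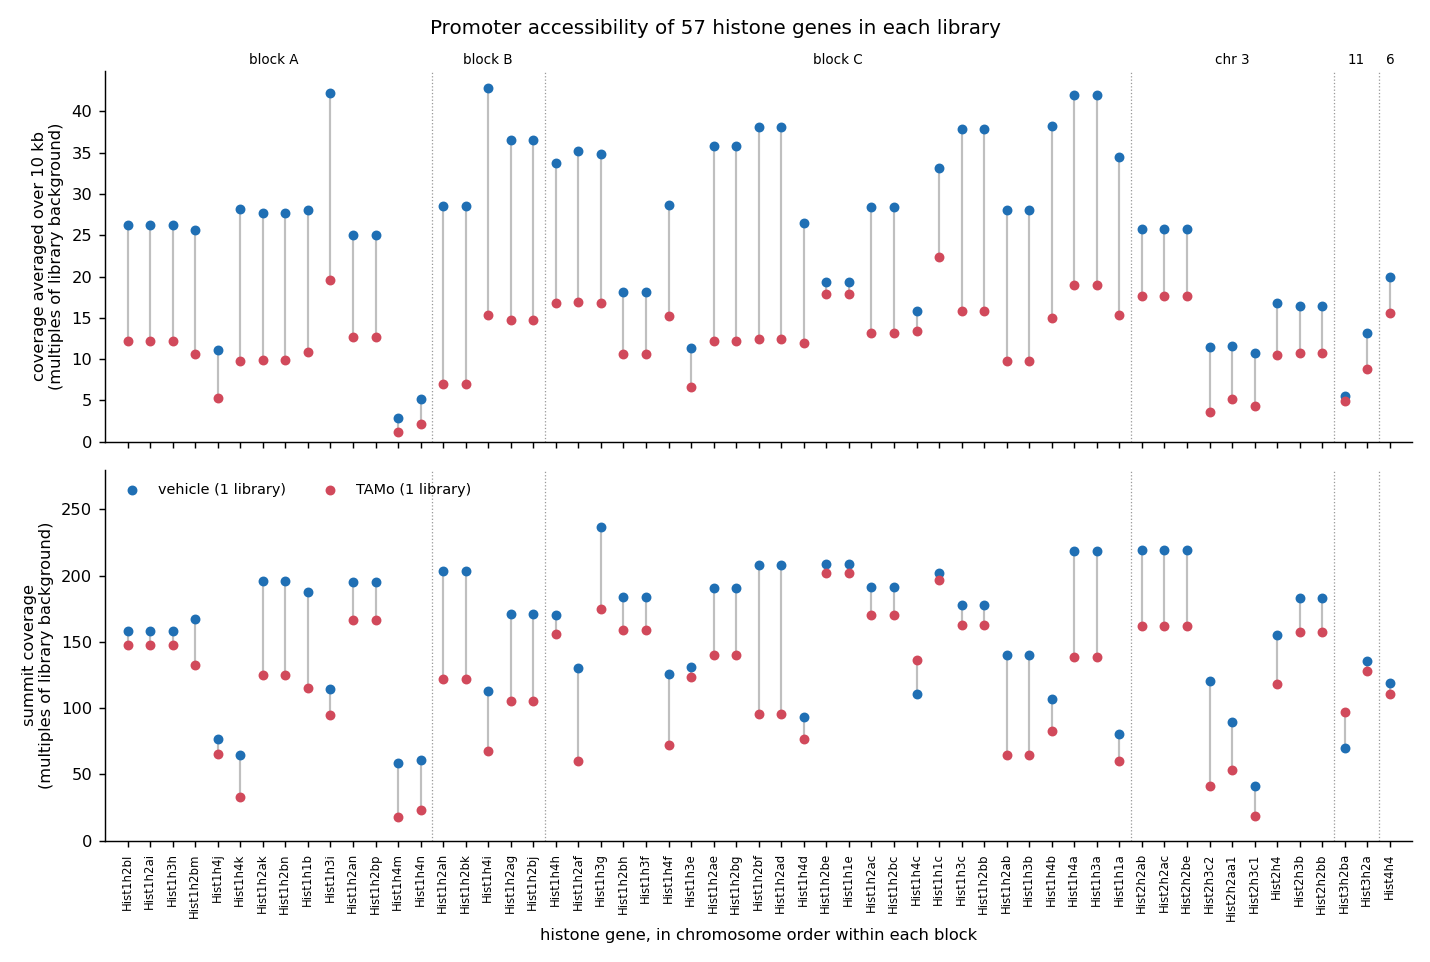
Coverage of 57 histone genes in the vehicle library (blue) and the TAMo library (red), 1 library each, in multiples of the library background. The upper panel gives the mean over 10 kb and the lower panel the summit, with genes in chromosome order within blocks and a grey line joining the libraries. In the upper panel every blue point lies above its red point, while in the lower panel 2 members, Hist1h4c and Hist3h2ba, have the higher value in TAMo.

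Many members stood at the top of the genome for 10 kb coverage in vehicle. In TAMo none did, although their median stayed above that of all promoters. Among the 129 promoters with the highest 10 kb coverage, which is the top 1%, 39 members were found in vehicle and 0 in TAMo. Hist1h4i was at rank 3 in vehicle and at rank 784 in TAMo. The median over all promoters was 30.3 reads in vehicle and 36.9 in TAMo, against 130 and 71.0 for the members. Of the 50 promoters with the lowest log2 ratio over 10 kb, 37 were members, and so were all of the lowest 10. The first gene outside the set, at rank 14, was Treml2, with 32.8 reads in vehicle and 14.6 reads in TAMo over 10 kb. Outside the set, 45 genes had at least the members' median 10 kb coverage in vehicle, and 0 of them were 1.5-fold lower. Their median log2 ratio was -0.10, and the lowest was that of Brd2 at -0.52.

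**Figure D2:**
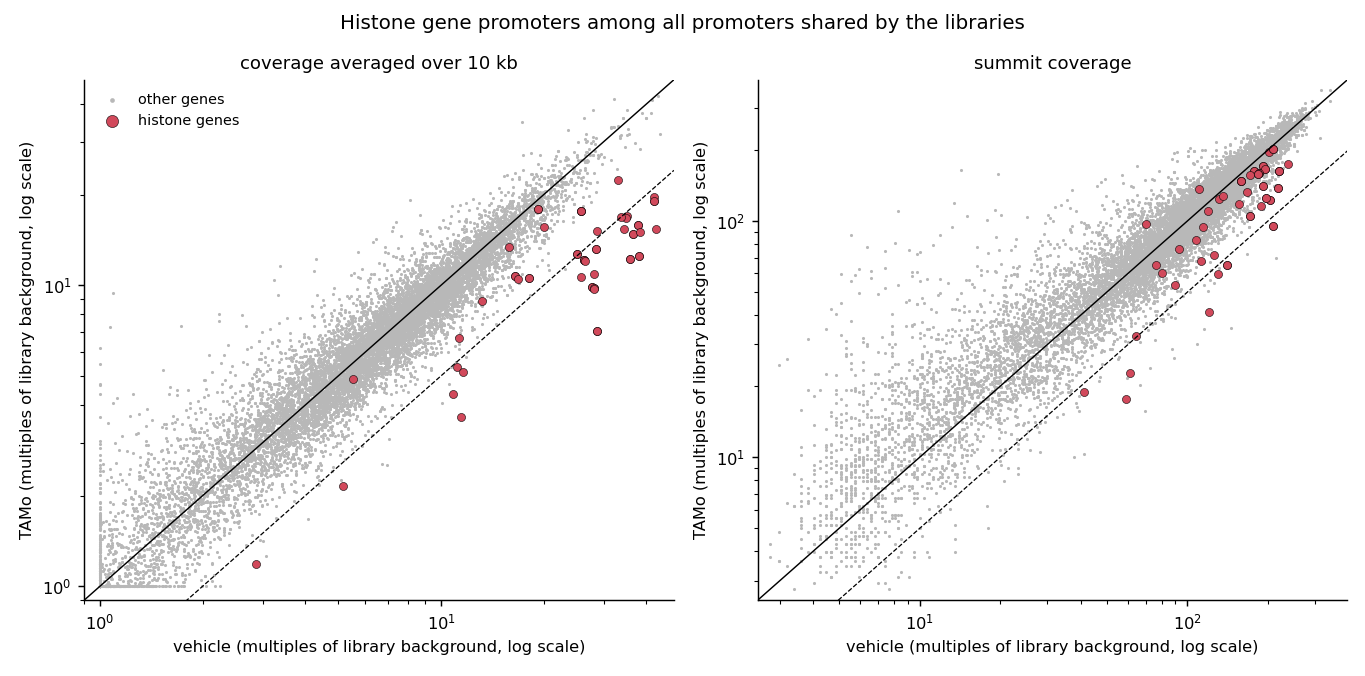
Coverage in TAMo (vertical axis) against vehicle (horizontal axis) for 12926 promoters, in multiples of the library background on log scales, over 10 kb on the left and at the summit on the right. Red points are the 57 histone genes, the solid line marks equal values and the dashed line a 2-fold lower value in TAMo. On the left 38 histone genes lie below the dashed line and 39 are among the 129 highest vehicle values, while Hist1h4m, Hist1h4n and Hist3h2ba have vehicle values below the median of all promoters. On the right 9 lie below the dashed line.

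Hist1h2bk and Hist1h2ah on chromosome 13, at the promoter printed above, had the lowest 10 kb ratio of the members. Their shared peak had a 10 kb coverage of 135 reads in vehicle and 40.9 reads in TAMo, a log2 ratio of -2.02 with a 95% exact binomial interval from -2.08 to -1.96. Next was Hist2h3c2, an H3 gene on chromosome 3 with a near copy, with a 10 kb coverage of 53.8 reads in vehicle and 21.1 in TAMo, a log2 ratio of -1.65 (interval -1.74 to -1.56). Hist1h4i and Hist1h1b, printed above for other reasons, were not among the lowest 10. At Hist1h4i the 10 kb coverage was 202 reads in vehicle and 89.3 in TAMo, a log2 ratio of -1.47 (interval -1.52 to -1.43). Hist1h1b, the linker histone gene printed above, had 132 reads in vehicle and 63.3 in TAMo over 10 kb, a log2 ratio of -1.36. All of these were higher in vehicle by far more than their counting intervals, which cover counting error only and not the spread between cultures. At the other end, Hist1h1e and Hist1h2be shared a peak with 90.9 reads in vehicle and 104 in TAMo over 10 kb, a log2 ratio of -0.11 after scaling (interval -0.16 to -0.06). Hist3h2ba on chromosome 11 had 25.9 reads in vehicle and 28.3 in TAMo, and Hist1h4c had 74.5 and 78.0. For these members the unscaled 10 kb value was higher in TAMo, and only the scaling by depth puts the ratio below 0.

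Summit coverage fell less than 10 kb coverage. The median summit held 806 reads in vehicle, ranging from 193 to 1115, and 726 reads in TAMo, ranging from 102 to 1173. The median log2 ratio at the summit was -0.42, a 1.34-fold difference, against 0.03 over all promoters, whose quartiles were -0.13 and 0.22. Below 0 were 55 of the 57 members, and for 43 the counting interval lay wholly below 0. At least 1.5-fold lower were 22 members, against 3.28% of all promoters, and 0 were 1.5-fold higher, against 9.07%. At least 2-fold lower were 9 members, against 0.727% of all promoters. All 22 members that were 1.5-fold lower at the summit were also 1.5-fold lower over 10 kb, and a further 25 were so over 10 kb alone. The 10 kb ratio was below the summit ratio for 54 of the 57 members, and for 65.5% of all promoters. Of the 50 promoters with the lowest summit ratio 3 were members, so the set stood out less by this measure. The fold the authors' peak caller gave, summit over local background, had a median of 6.65 over the members in the vehicle list, where 56 of 57 lay below the median of all promoters, 13.1. In the TAMo list the members' median fold was 10.3 and 48 of 57 lay below the median of all promoters, 13.9.

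The 4 lowest summit ratios belonged to genes with near copies, while 17 of the 22 members that were 1.5-fold lower were not among those found to share at least 50% of their promoter words with another promoter (Hist1h3a, 1 of the 17, has no RefSeq entry). Hist1h4m had 277 reads in vehicle and 102 in TAMo, a log2 ratio of -1.74 (95% exact binomial interval -2.08 to -1.41). Its copy Hist1h4n had 288 and 132 reads, a log2 ratio of -1.43 (interval -1.73 to -1.12). These are H4 genes whose promoters have 94.0% of their 50-base words in common with each other. Both summits lay downstream of the start site, beyond these promoter sequences. The distance was 619 bp in vehicle and 614 bp in TAMo for Hist1h4m, and 669 and 708 bp for Hist1h4n. Closer to its start site, Hist1h4m had a TAMo-only interval with 78 reads, 43 bp away. Hist1h4n had summits near its start of 22.5 in vehicle and 17.4 in TAMo, in multiples of the library background. Hist2h3c2 had 567 reads in vehicle and 238 in TAMo, a log2 ratio of -1.55 (interval -1.78 to -1.33), and its copy Hist2h3c1 had 193 and 109 reads, a log2 ratio of -1.12. Both code for H3 on chromosome 3 and have 74.1% of their promoter words in common. The summits of Hist2h3c2 also lay downstream of its start site. The next members had promoters without copies. Hist1h2bf and Hist1h2ad, a head-to-head H2B and H2A pair, shared a peak with 979 reads in vehicle and 553 in TAMo, a log2 ratio of -1.12 (interval -1.28 to -0.97). Hist1h2af, an H2A gene, had 613 and 347 reads, a log2 ratio of -1.12, at a peak downstream of the gene. Hist1h3b, an H3 gene, shared a peak with Hist1h2ab that held 661 and 376 reads, a log2 ratio of -1.11. At the strongest peak of each member named here the vehicle library was the higher even before the scaling by depth.

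The highest summit coverage in vehicle was at Hist1h3g, an H3 gene, with 1115 reads in vehicle and 1014 in TAMo, a log2 ratio of -0.44 (interval -0.56 to -0.31). The peak shared by Hist2h2ab, Hist2h2ac and Hist2h2be followed with 1034 and 940 reads and a log2 ratio of -0.44 (interval -0.57 to -0.31). At the upper end of the ratios only Hist3h2ba and Hist1h4c were above 0. Hist3h2ba, an H2B gene, had 330 reads in vehicle and 565 in TAMo at its summit, a log2 ratio of 0.48 (interval 0.28 to 0.68). Hist1h4c, an H4 gene, had 520 and 792 reads, a log2 ratio of 0.31 (interval 0.15 to 0.47), which became -0.03 when centred on all regions shared by the libraries. Both had a 10 kb ratio below 0, -0.18 and -0.24 on the log2 scale. Hist1h1c, Hist1h1e, Hist1h2be, Hist3h2a, Hist1h3e and Hist1h2bl, the other members of the upper 8, had log2 summit ratios from -0.10 to -0.04, and their counting intervals all reached across 0. Of these, Hist1h2bl with 745 and 855 reads at the summit had a 10 kb log2 ratio of -1.11.

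By position, the members of chromosome 13 fell into blocks separated by more than 100 kb. Block A (122 kb long with 18 members) had a median 10 kb log2 ratio of -1.18, and all 14 members with a ratio were at least 1.5-fold lower in TAMo. Block B (8.51 kb with 5 members, among them Hist1h2bk and Hist1h4i) had a median 10 kb log2 ratio of -1.47 and a median summit log2 ratio of -0.74, and all 5 members were 1.5-fold lower by both measures. Block C (233 kb with 29 members) had a median 10 kb log2 ratio of -1.12, and 22 of 26 members were 1.5-fold lower. The exceptions there were Hist1h1e, Hist1h2be, Hist1h4c and Hist1h1c. Block D held the testis genes Hist1h2aa and Hist1h2ba, with no promoter peak. Over all of chromosome 13 the median log2 ratio was -1.14 over 10 kb and -0.42 at the summit, with 41 of 45 members 1.5-fold lower over 10 kb.

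On chromosome 3, where 10 members lie within 50.3 kb, the median log2 ratio was -0.62 over 10 kb and -0.44 at the summit, and 6 of 9 members were 1.5-fold lower over 10 kb. The members of that cluster had less 10 kb coverage in vehicle, with a median of 77.7 reads against 134 reads on chromosome 13, while the TAMo medians were 62.4 and 72.4 reads. On chromosome 11, Hist3h2a and Hist3h2ba had 10 kb log2 ratios of -0.58 and -0.18, and neither was 1.5-fold lower. Hist3h2a had 640 reads in vehicle and 742 in TAMo at its summit. Hist4h4, alone on chromosome 6, had 94.1 reads in vehicle and 90.6 in TAMo over 10 kb, a log2 ratio of -0.35 (interval -0.41 to -0.30), and 562 and 640 reads at the summit. Neighbouring members share reads within 10 kb, so they are not separate observations. Among 22 members chosen so that their 10 kb windows did not overlap, the median log2 ratio was -1.08, 16 were 1.5-fold lower and 13 were 2-fold lower.

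**Figure D3:**
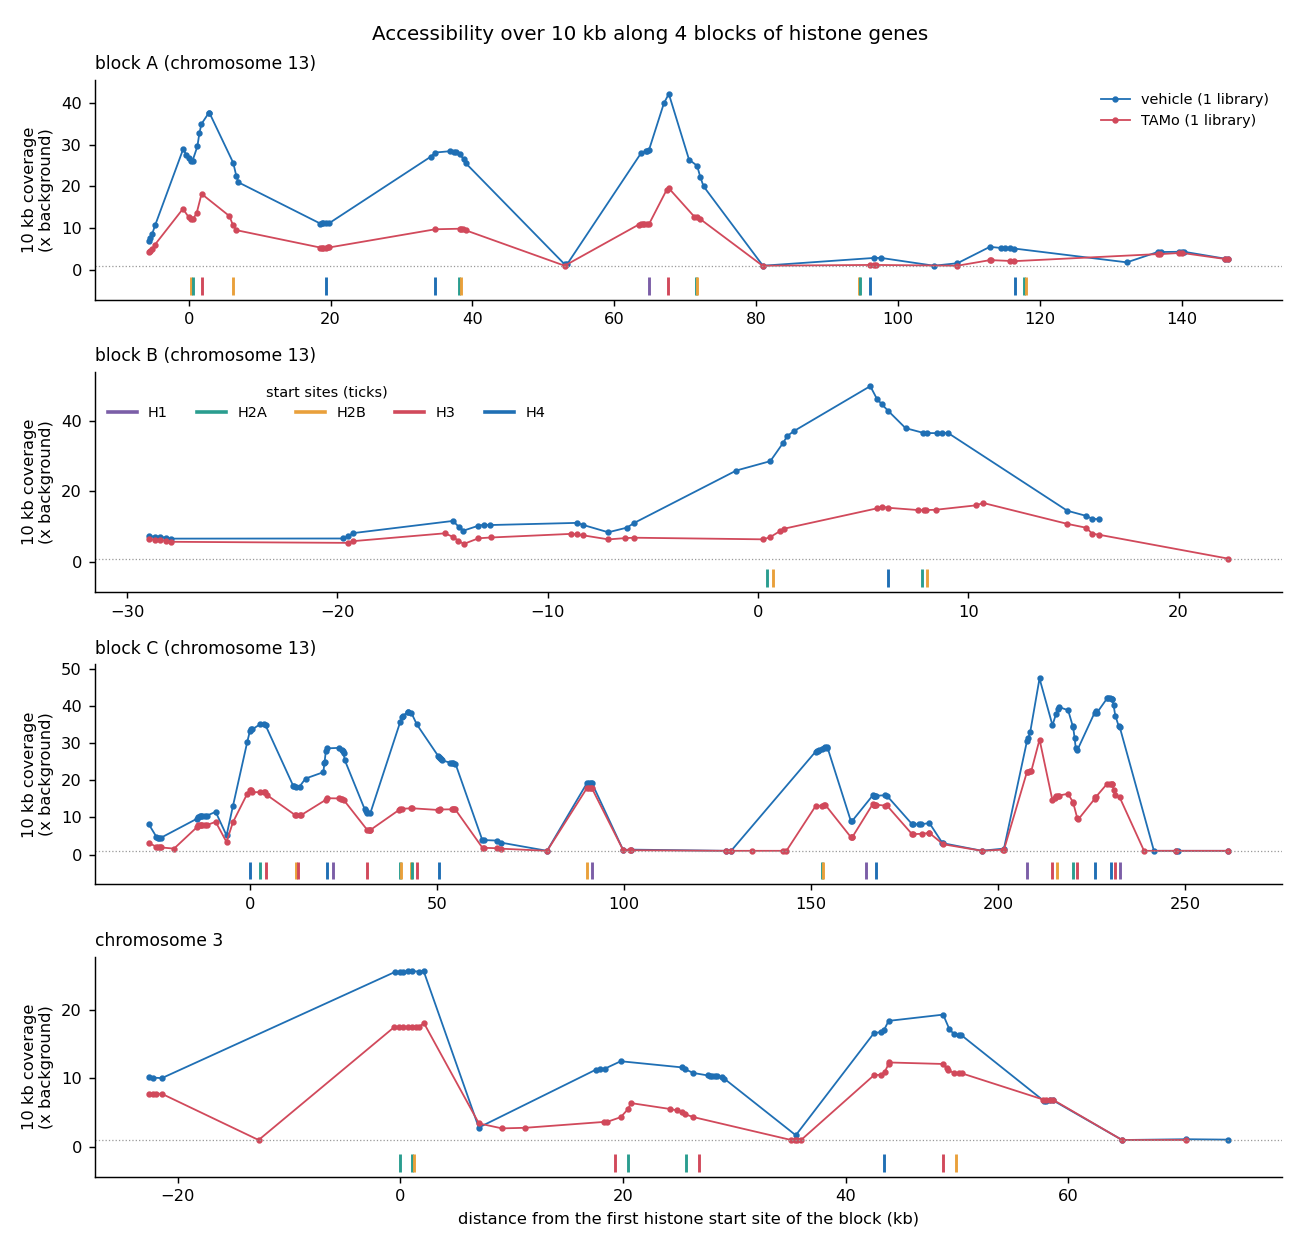
Coverage averaged over 10 kb around each summit (vertical axis, multiples of the library background) along 3 blocks on chromosome 13 and the cluster on chromosome 3, by distance from the first histone start site of the block in kb. Each point is a summit of the vehicle list (blue) or the TAMo list (red), 1 library each, the dotted line is the library background, and ticks below 0 mark start sites coloured by histone type. The vehicle line lies above the TAMo line at the groups of start sites, and in blocks A and C and on chromosome 3 both fall to about the background between some of them.

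By histone type the medians over 10 kb were close to each other, apart from H1. Genes of different types often share a peak and so have the same value, as at the 9 peaks that joined H2A and H2B genes. The types are therefore not separate observations. The medians of H2B and H3 were both the value of the peak shared by Hist1h2bl, Hist1h2ai and Hist1h3h. The median 10 kb log2 ratio was -1.14 for 14 H2A genes, -1.11 for 15 H2B genes, -1.11 for 11 H3 genes and -1.14 for 13 H4 genes. At least 1.5-fold lower over 10 kb were 11 H2A, 12 H2B, 11 H3 and 11 H4 genes, so that H3 had no exception among its genes with a ratio. Hist1h3d has no ratio, and Hist2h3b, the H3 gene with the highest 10 kb log2 ratio (-0.62), was close to the 1.5-fold limit. The 4 H1 genes had a median 10 kb log2 ratio of -0.86. Hist1h1a and Hist1h1b were 1.5-fold lower, with 162 and 132 reads in vehicle against 89.3 and 63.3 in TAMo, and Hist1h1c and Hist1h1e were not. At the summit the medians ran from -0.55 for H2A through -0.39 for H4, -0.28 for H3 and -0.23 for H1 to -0.23 for H2B on the log2 scale. The ranges of the types overlapped widely at the summit, from -1.12 to -0.09 for H2A and from -1.74 to 0.31 for H4.

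**Figure D4:**
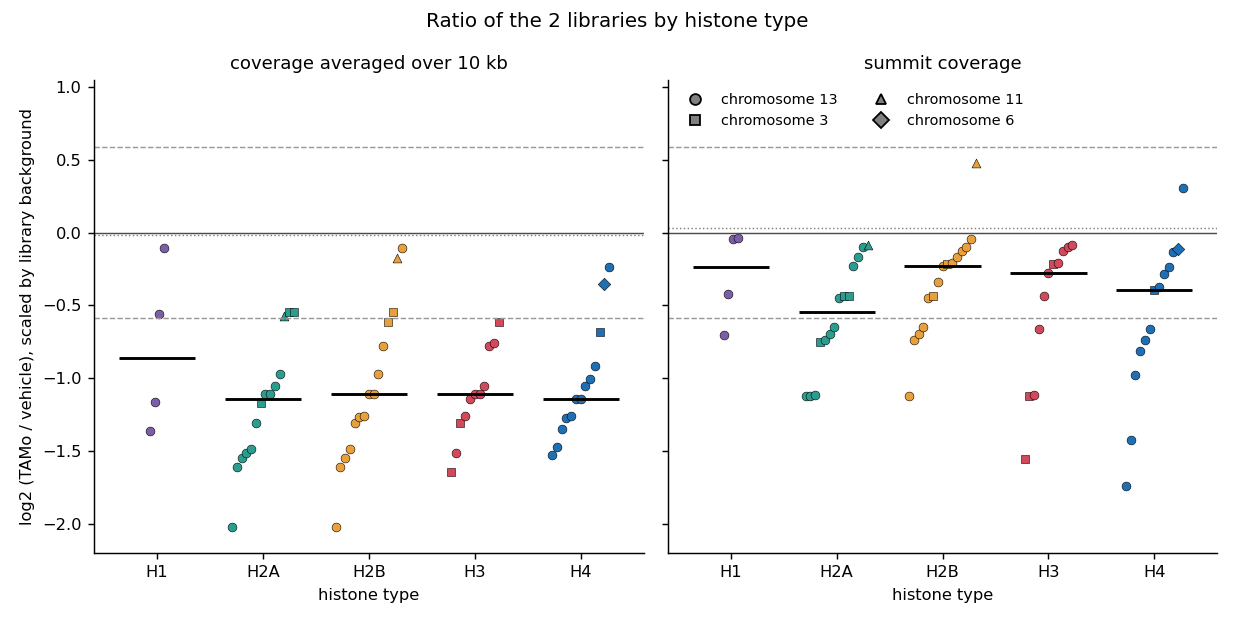
Log2 ratio of TAMo over vehicle, scaled by library background, for 57 histone genes by type, over 10 kb on the left and at the summit on the right. Each symbol is a gene, shaped by chromosome, black bars are medians, dotted lines the median of all promoters and dashed lines the 1.5-fold limits. Genes that share a peak, also those of different types, have the same value. All symbols on the left lie below 0, and the 5 types overlap in both panels.

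The number of intervals near the members did not follow the longer TAMo list. There were 164 intervals in vehicle and 161 in TAMo, a ratio of 0.982, whereas the whole lists had a ratio of 1.41. They covered 80.8 kb in vehicle and 72.0 kb in TAMo, a ratio of 0.890, against 1.40 for the whole lists. Of the vehicle intervals near members, 80.5% (95% Wilson interval 73.8% to 85.8%) overlapped a TAMo interval by at least 1 bp, against 87.5% of all vehicle intervals. Of the TAMo intervals, 83.9% (77.4% to 88.7%) overlapped a vehicle interval, against 60.5% of all TAMo intervals. The intervals of 1 library differed in strength and place. The 32 found in vehicle only had a median of 204.5 reads at the summit and a median 10 kb coverage of 107 reads, 23 lay within 2500 bp of a start site and 15 in a promoter. The 26 found in TAMo only had a median of 59 reads and a 10 kb coverage of 13.01 reads, 10 lay within 2500 bp and 7 in a promoter. After the interval at Hist1h3d, the strongest vehicle-only interval by the authors' q value lay 988 bp from the start of Hist1h2bk, with 437 reads. The strongest TAMo-only interval lay 2664 bp from Hist1h2bj, with 587 reads.

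The median 10 kb ratio was lowest close to the start sites, although lower regions were found at every distance. Among regions open in both libraries, the 83 within 5000 bp of a member start site had a median 10 kb log2 ratio of -1.05 and a median summit log2 ratio of -0.39. Between 5000 and 20000 bp the medians over 61 regions were -0.39 and -0.06, and between 20000 and 100000 bp the medians over 145 regions were -0.11 and 0.04. Beyond that, up to 1000 kb away, 726 regions had medians of 0.00 and 0.20, while all 111485 shared regions had 0.01 and 0.33. The 10 kb median of those 726 regions equals the ratio of a region at the library background in both libraries. Local background cannot fall below that level, so that median is partly set by the measure. At least 1.5-fold lower over 10 kb were 66 of 83 regions in the nearest range, 16 of 61 in the next, 32 of 145 between 20000 and 100000 bp and 91 of 726 beyond, against 5814 of all 111485 shared regions. The lowest log2 ratio was -2.02 in the nearest range and -2.09 in the farthest. The 10 kb windows of regions in the second range reach into the first, so these values are not independent. Of 48 other protein-coding genes between the outermost members on chromosome 13, 8 had a promoter peak in both libraries, against 65.3% of all genes. Trim38 had one in TAMo only (3.4% of all genes) and 39 had none (30.5%). The 39 were vomeronasal receptor genes (Vmn1r) and Slc17a1, Slc17a2, Slc17a3 and Slc17a4. The median 10 kb log2 ratio of the 8 was -0.23, and 2 of the 8 were 1.5-fold lower, against 2.87% of all promoters. These were Zfp184, 89.8 kb from the nearest member, with 53.0 reads in vehicle and 35.5 in TAMo over 10 kb (log2 ratio -0.88), and Abt1, 107 kb away, with 63.1 and 46.7 reads (log2 ratio -0.73). Hfe, 12.3 kb from a member, had a 10 kb log2 ratio of -0.55, Btn1a1 -0.28, Btn2a2 -0.06 and Zfp322a 0.02. Their summit log2 ratios were -0.73 for Zfp184, -0.65 for Hfe, -0.56 for Btn1a1, -0.07 for Abt1, -0.02 for Zfp322a and 0.24 for Btn2a2. On chromosome 11, Trim17 shares the peak of Hist3h2a.

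**Figure D5:**
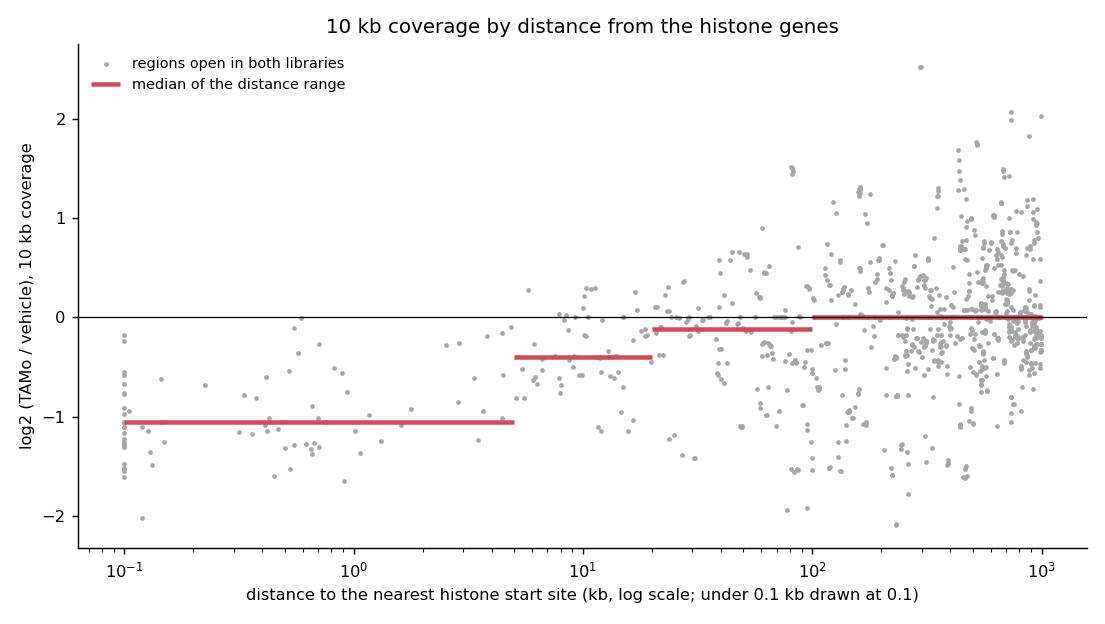
Log2 ratio of TAMo over vehicle for 10 kb coverage (vertical axis) against the distance from the nearest histone start site (horizontal axis, kb on a log scale) for regions open in both libraries on the chromosomes of the members. Grey points are regions and red bars are medians of the 4 distance ranges. The medians run from -1.05 nearest to the genes to 0.00 in the farthest range, and points below -1 occur in all 4 ranges.

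The genes that serve histone supply had ratios closer to those of all promoters than the members had, but over 10 kb most were low. Of 23 genes for histone transcription and mRNA processing found among the autosomal genes, all had a promoter peak in both libraries. Of the 22 with a ratio, 1 was 1.5-fold lower at the summit and 2 over 10 kb, with median log2 ratios of -0.08 and -0.19. Over all promoters 3.28% and 2.87% were 1.5-fold lower, and the medians were 0.03 and -0.02. The 10 kb median of the list, -0.193, lay below the lower quartile of all promoters, -0.185. Cdk2, the cyclin-dependent kinase of S phase entry, had 489 reads in vehicle and 396 in TAMo at its promoter summit, a log2 ratio of -0.60 and of -0.79 over 10 kb. Slbp, which binds the stem-loops printed above, had 1067 and 970 reads, a log2 ratio of -0.44 by both measures. Ccne2, a cyclin E, had 844 and 826 reads and a log2 ratio of -0.33 at the summit and -0.61 over 10 kb. At the upper end, Srrt (log2 summit ratio 0.27), Cpsf3 (0.17) and Cstf2t (0.11) were not 1.5-fold higher.

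Of 11 genes for replication-independent histone variants, which are made outside S phase as well, 0 were 1.5-fold lower at the summit and 1 was over 10 kb, with median log2 ratios of -0.03 and -0.18. H2afx, which codes for the DNA damage variant H2A.X, had 943 reads in vehicle and 846 in TAMo and log2 ratios of -0.46 at the summit and -0.97 over 10 kb. H2afj, 3.83 kb from Hist4h4, had log2 ratios of -0.29 and -0.19, and H3f3b, an H3.3 gene, -0.14 and 0.28. H1fx, a linker histone variant, was the gene 1.5-fold higher at the summit, with 168 and 341 reads and a log2 ratio of 0.72. Over 10 kb its log2 ratio was -0.08 (interval -0.19 to 0.03). H1f0 had a log2 summit ratio of 0.08, and H2afy2 had 20 and 26 reads, too few to tell the libraries apart (interval -0.82 to 1.00). Of 20 histone chaperones and their partners, 1 was 1.5-fold lower at the summit and 1 over 10 kb, with medians of -0.06 and -0.19. Over all promoters 3.28% were 1.5-fold lower at the summit and 2.87% over 10 kb. The 10 kb medians of the variants and of the chaperones were both below that of all promoters, -0.02. Chaf1a, a subunit of the chromatin assembly factor that deposits new H3 and H4, had 561 and 441 reads and a log2 summit ratio of -0.65. Hjurp, the chaperone of the centromeric H3 variant, had -0.48 and Supt16, a FACT subunit, -0.43 at the summit, the latter with -0.66 over 10 kb. Nap1l4 (0.17), Nap1l1 (0.11) and Ubn1 (0.09) had the highest log2 summit ratios of that list.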

How the data were processed

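ATAC-seq libraries from sorted CD8+ T cells, 1 per culture, were sequenced as paired reads of 150 bp. Per the submitters' processing notes, reads were handled with Trimmomatic 0.36, Bowtie2 and MACS2 on mm10. For settings, duplicates and reads with several matches, the status is the same: not given in the sources used here. Peaks were called on each library alone. The authors' columns used here are the deposited fold (a ratio to local background), the deposited −log10 p-value and the deposited −log10 q-value; the deposited score was not used.

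Fold and −log10 p together give the coverage and local background at a summit, since the deposited fold matched (coverage + 1)/(background + 1) and the deposited −log10 p a Poisson tail; 30 vehicle and 48 TAMo rows gave no whole number within 1% of a step and were left out. The recovery was tested on simulated data. Local background cannot fall below the library background, and no member with a ratio was at that floor. Values are scaled by the most frequent background, 4.71 and 5.80 reads. Ratios compare the strongest promoter peak (by −log10 q, within 1 kb of a start site) of each library where the peaks overlap by at least 1 bp. For the members with a ratio, summits lay at most 682 bp apart, with a median of 12 bp. Intervals are 95% exact binomial for ratios and Wilson for shares, and cover counting error only. Depth is known from coverage alone, not from library totals.

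The members, lists and rules were chosen with earlier results of these data known. Named genes were every member lacking a promoter peak in a library, the 8 lowest, the 8 highest and the 4 with most vehicle summit coverage, and up to 3 lowest and 3 highest per list; members named for their 10 kb values, for the printed promoters or as exceptions, and genes outside the lists, were chosen after their values were seen. Cstf2 is not among the autosomal genes. Alternatives were other windows, scalings, fold limits, overlap rules and thresholds. Python 3.11.15, numpy 2.4.6, pandas 2.3.3, scipy 1.17.1 and matplotlib 3.10.9 were used.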

Additional observations from a re-analysis of the deposited data

How the results depend on the processing

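No paired analysis was possible because each group has 1 library, and no replicate could be left out. The medians of the members kept their sign under every alternative run. With a promoter window of 2500 bp, 0 members had a peak in vehicle only, 2 in TAMo only and 0 in neither, so the order of the libraries in these small counts turned. Centred on the median of all shared regions, which shifts summit ratios by 0.33 on the log2 scale, 34 members were 1.5-fold lower at the summit and the median was -0.76; the medians became -0.76 on chromosome 13, -0.77 on chromosome 3, -0.57 for H1, -0.88 for H2A, -0.56 for H2B, -0.61 for H3 and -0.73 for H4. A fold limit of 2 left 9 members lower at the summit. With the stricter, reciprocal overlap rule, 63.4% of vehicle and 64.6% of TAMo intervals near members were shared, and with lists of equal length 73.2% and 90.8%. Over 10 kb, 42 of 52 members were 1.5-fold lower without those whose promoter has copies, with a median of -1.11, and all 47 calls stayed when every summit row inside the window was taken. Of the values for the main results under alternatives, 17 moved past the limits set for no change and 92 stayed within them. Among single members, Hist1h2af had a log2 summit ratio of -0.44 with the 2500 bp window and -1.35 with the 500 bp window, Hist1h4c -0.03 when centred on all shared regions, and Hist2h2ab -0.09 when only summits inside the window were taken; the cause was not tested.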
